A study of Mus musculus with 18 samples.

Results

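The comparison described here set germ cells of Ts1Cje mice against germ cells of wild-type (WT) mice at 19-20 days post partum (dpp). It was chosen by the sample labels alone, which give 3 Ts1Cje arrays and 3 WT arrays at this age, 6 of the 18 arrays of the series. Ts1Cje is a mouse model of Down syndrome with a partial trisomy of distal chromosome 16, in which the extra segment sits on the end of chromosome 12. The rearrangement carries a disrupted copy of Sod1, and the end of chromosome 12 is lost from the chromosome that took up the segment. WT mice were diploid littermates, and the labels do not say whether their litters were Ts1Cje or Ts65Dn. The other arrays came from Ts1Cje and WT mice at 16-17 dpp and from Ts65Dn mice, a model with a longer extra part of chromosome 16, at both ages. All samples were enriched male germ cells, each group had 3 biological replicates, and total RNA was read on Illumina MouseWG-6 v1.1 BeadArrays. The labels do not say whether a sample was a pool of animals.

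In the juvenile testis the oldest germ cells enter meiosis together and pass through its long prophase, so each day of age adds later cells. During pachytene the paired homologous chromosomes recombine and the unpaired sex chromosomes are silenced, and a checkpoint removes cells with unpaired autosomal segments. An extra segment of chromosome 16 has no regular partner at that stage, and its genes are present in 3 copies in every cell that carries it. The cells at 19-20 dpp range from spermatogonia through late pachytene spermatocytes to the earliest round spermatids.

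Values are normalised log2 intensities of array probes, and differences are Ts1Cje minus WT, so that a positive value means more signal in Ts1Cje. The tests cover 21336 probes, those detected above the negative controls (detection p under 0.05) on 3 or more arrays out of 18. Only 28.1% of the tested probes could be given a gene symbol, for 5178 genes, and chromosomes and gene lists cover those genes. On the Ts1Cje arrays 17102, 18244 and 18801 probes were detected, and on the WT arrays 18193, 18736 and 17439. Ts1Cje replicate 1 stood apart. It had the fewest detected probes of all 18 arrays and the lowest weight, 0.124, when limma weighted arrays by their fit to their group. Markers of 10 round spermatid genes averaged 12.52, 10.49 and 10.37 on Ts1Cje replicates 1, 2 and 3, against 11.57, 10.53 and 10.49 on WT replicates 1, 2 and 3. Replicate 1 was thus the highest of its group for spermatid genes in both genotypes, by more in Ts1Cje. Many of the results below are therefore also given without that array, and some without replicate 1 of both genotypes.

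No probe passed the test at an adjusted p under 0.05 in Ts1Cje against WT at this age (0.00% of 21336 probes, limma with Benjamini-Hochberg adjustment), and the lowest adjusted p was 0.082. At an unadjusted p under 0.05 stood 634 probes (2.97%), of which 253 were higher in Ts1Cje (1.19%) and 381 were lower (1.79%). All 3 Ts1Cje arrays lay above all 3 WT arrays for 381 probes (1.79%) and below them for 737 (3.45%). The median difference over all tested probes was -0.02, and 46.3% of probes had a difference above 0. The 95% interval of a difference reached a median of 0.54 to either side, with a median standard error (SE) of 0.25, so 3 arrays per group leave the interval of a typical probe nearly as wide to each side as the 0.58 of an extra gene copy. Without Ts1Cje replicate 1, 7 probes passed, all lower in Ts1Cje, and 2825 had an unadjusted p under 0.05. With array weights, 8 probes passed as higher and 24 as lower.

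The genes in 3 copies were higher in Ts1Cje as a group. Of the 68 genes listed for the triplicated segment, 32 were named on the array and 20 were tested, from Eva1c (chr16:90826719-90905109) to Zbtb21 (chr16:97945795-97962627, GRCm38.p6). The difference was above 0 for 19 of the 20, against 46.3% of all tested probes, and the median difference was 0.33, a 1.26-fold higher level, against -0.02 over all tested probes. In 7 of the 20 genes all Ts1Cje arrays lay above all WT arrays, where 1.79% of all probes did so. None of the 20 passed at an adjusted p under 0.05, and 4 had an unadjusted p under 0.05, all higher in Ts1Cje, where 1.19% of all probes did. A proportional response to 3 copies in place of 2 would give 0.58 on the log2 scale. The 95% interval held 0.58 for 18 of the 20 genes, held 0 for 16, and lay wholly below 0.58 for 2, Brwd1 and Mx2.

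Dyrk1a encodes a dual-specificity kinase that phosphorylates NFAT transcription factors and splicing factors, and its level was 8.73 on each of the 3 Ts1Cje arrays, against 8.30, 8.28 and 8.08 on the WT arrays. The groups did not overlap, and the difference was 0.51 ± 0.19 (SE, n = 3 each, unadjusted p = 0.017, adjusted p = 1, limma). Eva1c, which encodes a membrane protein of the Eva-1 family, measured 7.34, 6.79 and 7.26 in Ts1Cje against 6.68, 6.69 and 6.70 in WT, where only 2 of the 3 arrays detected it. Its difference of 0.45 ± 0.15 had the smallest p of the group (unadjusted p = 0.0099, adjusted p = 1, limma).

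Tmem50b, which encodes a membrane protein of the endoplasmic reticulum and Golgi, stood at 13.14, 13.03 and 12.77 in Ts1Cje against 12.60, 12.57 and 12.62 in WT, a difference of 0.38 ± 0.17 (unadjusted p = 0.039, adjusted p = 1, limma). The WT arrays lay within a narrow band below every Ts1Cje array. Zbtb21 is a zinc finger transcriptional repressor at the distal end of the segment. It measured 10.00, 9.63 and 9.52 in Ts1Cje against 9.39, 9.46 and 9.17 in WT. Its difference was 0.37 ± 0.17 (unadjusted p = 0.046, adjusted p = 1, limma). Without Ts1Cje replicate 1 the differences were 0.51 for Dyrk1a, 0.34 for Eva1c, 0.30 for Tmem50b and 0.23 for Zbtb21. Tmem50b and Zbtb21 then no longer had an unadjusted p under 0.05 (0.12 and 0.20, limma).

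Separate groups were also seen for a further 3 genes whose unadjusted p missed 0.05. Mrps6, a protein of the small subunit of the mitochondrial ribosome, measured 12.48, 13.28 and 13.27 in Ts1Cje against 12.41, 12.39 and 12.43 in WT, the largest difference of the 20 at 0.60 ± 0.29. Ts1Cje replicate 1 lay just above the WT arrays, and the other replicates lay well above them. Cryzl1, a quinone oxidoreductase-like protein, measured 9.08, 8.40 and 8.64 in Ts1Cje against 8.33, 8.33 and 7.77 in WT, a difference of 0.56 ± 0.28. Psmg1, a chaperone of proteasome assembly, measured 13.11, 13.20 and 13.13 in Ts1Cje against 12.73, 13.03 and 12.85 in WT. Its difference was 0.28 ± 0.15. Without Ts1Cje replicate 1 the differences were 0.86 for Mrps6, 0.38 for Cryzl1 and 0.30 for Psmg1.

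The promoters of the 4 triplicated genes with an unadjusted p under 0.05 are shown because these genes had the smallest p of the segment and all their Ts1Cje arrays lay above all WT arrays. Each is the RefSeq window from 250 bases before to 50 after a start listed for the gene in GRCm38.p6. Windows are read 5′ to 3′ on the gene's strand, and for Dyrk1a the start is the one listed first of 3. For Eva1c the window begins at 90830609, inside the gene, whose own first base is 90826719. Capitals mark the letters of 6 motifs searched on both strands: the GC box GGGCGG, the CCAAT box CCAAT, the ETS core CCGGAAG, the NRF1 site, the CRE TGACGTCA and the TATA box TATAAA.
Eva1c, chr16:90830609-90830908, plus strand: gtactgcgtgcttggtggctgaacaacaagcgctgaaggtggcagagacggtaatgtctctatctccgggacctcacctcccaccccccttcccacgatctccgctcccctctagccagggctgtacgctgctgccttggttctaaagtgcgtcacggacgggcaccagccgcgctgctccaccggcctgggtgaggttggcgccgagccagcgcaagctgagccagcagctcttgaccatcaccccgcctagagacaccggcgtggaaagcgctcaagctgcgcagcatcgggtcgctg
Tmem50b, chr16:91597631-91597930, minus strand: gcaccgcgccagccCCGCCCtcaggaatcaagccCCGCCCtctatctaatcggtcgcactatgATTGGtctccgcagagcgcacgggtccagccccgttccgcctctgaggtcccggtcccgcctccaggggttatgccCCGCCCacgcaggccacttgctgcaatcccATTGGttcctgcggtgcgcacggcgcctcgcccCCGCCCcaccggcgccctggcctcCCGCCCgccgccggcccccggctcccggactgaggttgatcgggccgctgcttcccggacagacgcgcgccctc
Dyrk1a, chr16:94569956-94570255, plus strand: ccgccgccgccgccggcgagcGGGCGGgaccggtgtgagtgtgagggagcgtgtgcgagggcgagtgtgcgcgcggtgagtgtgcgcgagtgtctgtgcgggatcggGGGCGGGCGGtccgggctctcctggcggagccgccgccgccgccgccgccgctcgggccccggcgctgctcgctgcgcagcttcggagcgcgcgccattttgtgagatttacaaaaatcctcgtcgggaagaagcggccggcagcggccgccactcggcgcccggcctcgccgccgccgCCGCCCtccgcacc
Zbtb21, chr16:97962573-97962872, minus strand: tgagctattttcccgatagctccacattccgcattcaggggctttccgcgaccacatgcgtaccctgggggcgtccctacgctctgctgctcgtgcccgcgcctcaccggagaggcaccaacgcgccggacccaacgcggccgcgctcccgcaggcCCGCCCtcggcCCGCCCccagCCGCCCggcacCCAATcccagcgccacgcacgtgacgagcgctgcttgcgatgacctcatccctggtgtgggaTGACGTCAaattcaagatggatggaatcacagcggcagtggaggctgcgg
The windows of Tmem50b, Dyrk1a and Zbtb21 held 5, 4 and 3 GC boxes, counting overlapping copies, and that of Eva1c held none of the motifs. Zbtb21 also held a CRE and a CCAAT box, and Tmem50b held 2 CCAAT boxes. Of the 20 tested triplicated genes 16 had a window in the table, and 12 of the 16 held a GC box, against 35.9% of 27025 mouse promoters. CCAAT letters were in 7 of the 16 windows, against 37.9% of all promoters. ETS letters were in 2 (9.12% of all), NRF1 letters in 2 (4.78%), CRE letters in 1 (1.88%) and TATA letters in 0 (14.2%). No motif's letters contain those of another. The median window of the 16 genes held 30 CpG dinucleotides, against 7 over all promoters. The 16 genes had passed the detection filter, and the set of all promoters had no such filter. A comparison with the promoters of other detected genes was not made.

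The other 13 triplicated genes overlapped between the groups, and in several of them Ts1Cje replicate 1 was the array level with WT. Ifngr2, the signalling subunit of the interferon gamma receptor, measured 12.17, 13.43 and 13.58 in Ts1Cje against 12.16, 12.56 and 12.77 in WT (0.56 ± 0.36). Il10rb, a subunit shared by receptors of the interleukin 10 family, measured 6.94, 8.79 and 9.04 in Ts1Cje against 7.08, 7.86 and 8.15 in WT (0.56 ± 0.46). For both genes replicates 2 and 3 of Ts1Cje were above every WT array, and replicate 1 was not. Without Ts1Cje replicate 1 the difference was 1.01 for Ifngr2 and 1.22 for Il10rb.

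Hlcs, the ligase that attaches biotin to carboxylases, measured 8.16, 9.55 and 9.42 in Ts1Cje against 8.21, 9.01 and 8.60 in WT (0.44 ± 0.37). Hmgn1, a nucleosome-binding protein, measured 14.29, 15.18 and 15.11 in Ts1Cje against 14.27, 14.81 and 14.66 in WT (0.28 ± 0.22). Ttc3, a ubiquitin ligase, measured 12.23, 13.07 and 12.86 in Ts1Cje against 12.31, 12.61 and 12.37 in WT (0.29 ± 0.22). In these genes too, 2 of the 3 Ts1Cje arrays exceeded every WT array. Their differences without Ts1Cje replicate 1 were 0.87 for Hlcs, 0.57 for Hmgn1 and 0.54 for Ttc3. Ets2, a transcription factor, had a difference of 0.17 ± 0.42, or 0.66 without Ts1Cje replicate 1, and Itsn1, a scaffold of endocytosis, one of 0.25 ± 0.22.

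Dnajc28, a J-domain protein, ran the other way among replicates, at 9.09, 7.65 and 6.74 in Ts1Cje against 7.55, 7.87 and 6.76 in WT (0.43 ± 0.46). Only Ts1Cje replicate 1 lay above WT, and without it the difference was -0.20. Brwd1, a bromodomain protein needed for sperm formation in the mouse, had a difference of 0.13 ± 0.17, and Mx2, an interferon-induced GTPase, one of 0.02 ± 0.23. Dscam, a cell adhesion molecule, and Sh3bgr, an SH3-binding protein, were detected on 0 of the 3 Ts1Cje arrays, and on 0 and 1 of the 3 WT arrays, so their differences of 0.24 ± 0.31 and 0.06 ± 0.51 compare signals near background. Clic6, a chloride intracellular channel protein, was the gene below 0, at 8.97, 10.31 and 9.76 in Ts1Cje against 9.90, 10.21 and 9.67 in WT (-0.25 ± 0.40), and without Ts1Cje replicate 1 it stood at 0.11.

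**Figure D1:**
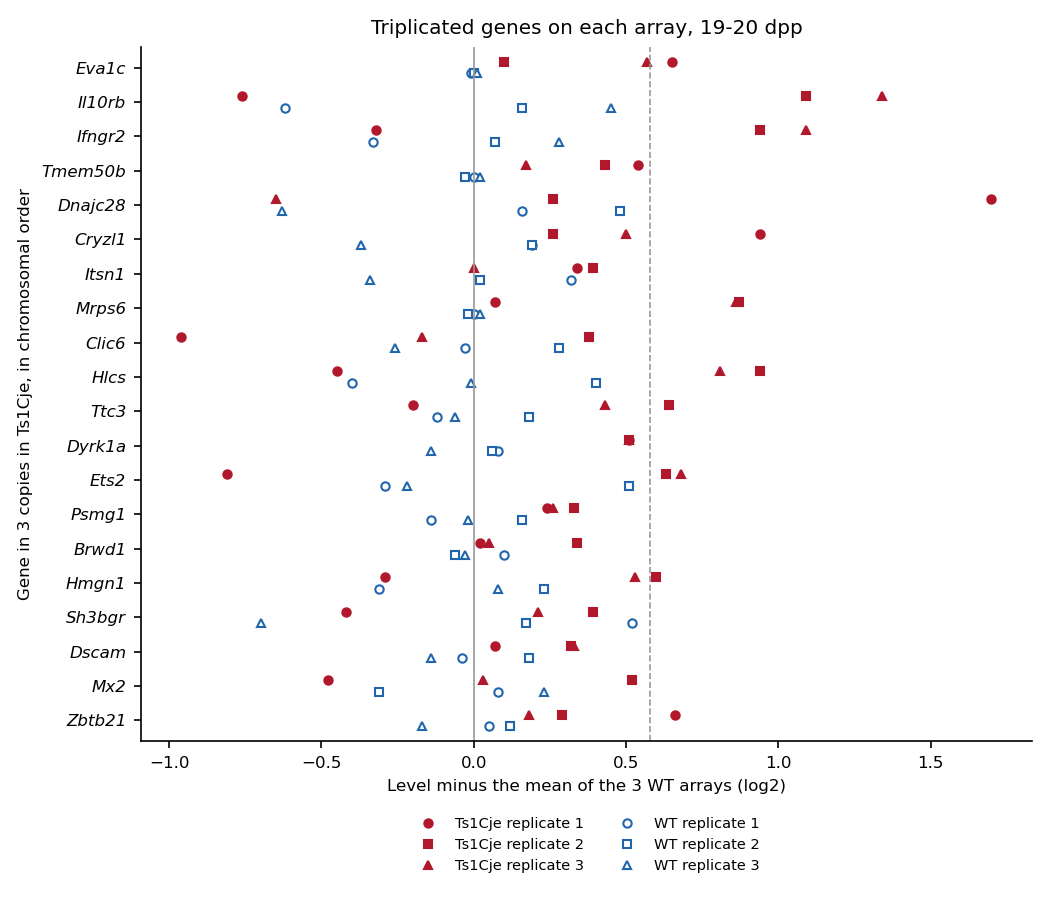
The horizontal axis gives the level of each of the 20 tested triplicated genes on each array minus the mean of the 3 WT arrays (log2), with genes in chromosomal order down the page, Ts1Cje arrays as filled red symbols above and WT arrays as open blue symbols below. The dashed line marks 0.58, the value for 3 over 2 copies, and Ts1Cje replicate 1 (circles) falls left of 0 in 9 genes and right of it in 11.

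Across the 20 genes the median level above the WT mean was 0.04, 0.41 and 0.38 on Ts1Cje replicates 1, 2 and 3, against 0.00, 0.16 and -0.05 on WT replicates 1, 2 and 3. Ts1Cje replicate 1 was above the WT mean in 11 genes, replicate 2 in 20 and replicate 3 in 17, so the shift of the group rests on replicates 2 and 3. Between arrays with the same replicate number the median difference was 0.02, 0.37 and 0.48, and 11 of the 20 genes were higher in Ts1Cje in all 3 pairs. Between arrays of the same set of consecutive array numbers it was -0.02, 0.43 and 0.48. Leaving out Ts1Cje replicate 1 gave a median of 0.33 with 19 of 20 genes above 0, and with 8 genes at an unadjusted p under 0.05, a setting in which 13.2% of all tested probes had one. Without replicate 1 of both genotypes the median was 0.38, with 19 of 20 above 0 and 5 at an unadjusted p under 0.05, against 7.2% of all tested probes.

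The 8 tested genes just proximal to the segment, which have 3 copies in Ts65Dn but 2 working copies in Ts1Cje, did not share the shift. Their median difference was -0.09, with 3 of 8 above 0 and none at an unadjusted p under 0.05. App, the amyloid precursor protein gene, measured 11.66, 12.53 and 12.69 in Ts1Cje against 11.77, 12.48 and 12.25 in WT (0.13 ± 0.25). Sod1, the cytosolic superoxide dismutase whose extra copy is disrupted in Ts1Cje, measured 13.44, 13.92 and 14.08 in Ts1Cje against 13.34, 13.86 and 13.81 in WT (0.14 ± 0.18). For both genes the groups overlapped.

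Gabpa, an ETS-family transcription factor subunit, differed by -0.11 ± 0.19, Jam2, a junctional adhesion molecule, by -0.06 ± 0.41, and Bach1, a repressor of the haem and oxidative stress response, by -0.14 ± 0.26. Usp16, a histone H2A deubiquitinase, differed by 0.35 ± 0.28. The matrix proteases Adamts5 and Adamts1 differed by -0.51 ± 0.48 and -0.20 ± 0.36, and Adamts1 was not detected on any of the 6 arrays. On single arrays the median of the 8 genes above the WT mean was -0.37, 0.12 and 0.21 on Ts1Cje replicates 1, 2 and 3, against -0.18, 0.22 and 0.06 on WT replicates 1, 2 and 3. Replicate 1 was thus lowest for these genes as well, and without it their median was 0.08. Among 138 tested genes of proximal chromosome 16, 46 were above 0, the median was -0.06, and 2 had an unadjusted p under 0.05, both lower in Ts1Cje.

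**Figure D2:**
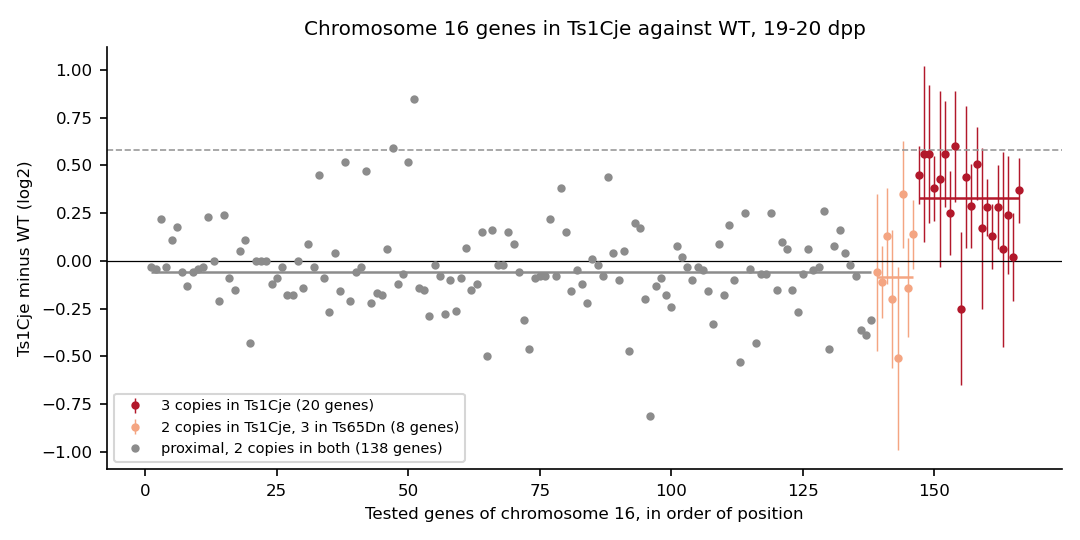
Points give the Ts1Cje minus WT difference (log2) of the 166 tested genes of chromosome 16 in order of position, with the SE as bars for the 20 genes in 3 copies (red) and for the 8 genes in 2 copies in Ts1Cje and 3 in Ts65Dn (orange), and horizontal lines for the medians of the classes. The dashed line marks 0.58, and the medians are -0.06 for proximal genes, -0.09 for the 8 genes and 0.33 for the triplicated genes.

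Ts65Dn at 19-20 dpp shares no arrays with Ts1Cje and has 3 copies of both sets, so the models were compared directly. Between them 2504 of 21336 probes passed (11.7%), 4.43% higher and 7.31% lower in Ts1Cje. Of the 20 genes in 3 copies in both models, 2 passed as higher in Ts1Cje and 2 as lower, with a median difference of -0.04. Of the 8 genes in 3 copies in Ts65Dn alone, 5 passed, all lower in Ts1Cje, with a median of -1.02. These were Gabpa at -1.11 ± 0.19 (adjusted p = 0.0079), Bach1 at -1.37 ± 0.26 (adjusted p = 0.0098), Sod1 at -0.94 ± 0.18 (adjusted p = 0.0098), App at -1.26 ± 0.25 (adjusted p = 0.013) and Adamts5 at -1.72 ± 0.48 (adjusted p = 0.036), by limma. All 5 differences exceed in size the 0.58 of a copy ratio of 3 to 2. The same 5 genes also fell between the ages in WT, with changes from -0.76 for Gabpa to -1.15 for Bach1. An age score, described below, was 2.58, 1.48 and 1.71 on the Ts65Dn arrays against 3.74, 2.44 and 2.23 on the Ts1Cje arrays. The part of cell stage in the differences between the models was not tested. Eva1c and Mx2 passed as higher in Ts1Cje, by 0.50 ± 0.15 (adjusted p = 0.047) and 0.93 ± 0.23 (adjusted p = 0.027), and Clic6 and Ttc3 as lower, by -1.51 ± 0.40 (adjusted p = 0.031) and -0.76 ± 0.22 (adjusted p = 0.041), by limma. Changes between the ages in WT were 0.02 for Eva1c, 0.97 for Mx2, -1.01 for Clic6 and -0.77 for Ttc3. With only the 6 arrays of Ts1Cje and Ts65Dn at 19-20 dpp in the fit, no gene of either set passed. The medians were the same, -0.04 and -1.02. Without Ts65Dn replicate 2, or in the shared set without Ts65Dn replicate 3, none passed either.

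Of 10 genes listed for the end of chromosome 12 affected by the Ts1Cje translocation, 3 were tested. Whether each of the 3 lies in the lost part was not tested. Cdca7l, a MYC-interacting nuclear protein gene, measured 10.61, 10.95 and 10.36 in Ts1Cje against 11.29, 11.52 and 11.23 in WT. All Ts1Cje arrays lay below all WT arrays, and the difference was -0.71 ± 0.27 (unadjusted p = 0.021, adjusted p = 1, limma), where the loss of 1 of 2 copies would give -1. Against Ts65Dn it was -1.16 ± 0.27 and passed (adjusted p = 0.022, limma). Rapgef5, an exchange factor for Rap GTPases, lay on the other side, at 7.11, 7.31 and 7.42 in Ts1Cje against 6.55, 6.86 and 6.26 in WT (0.72 ± 0.30, unadjusted p = 0.030, adjusted p = 1, limma), with detection on 3 Ts1Cje arrays and 1 WT array. Twistnb, an RNA polymerase I subunit, measured 9.93, 9.07 and 10.10 in Ts1Cje, against 6.11 and 6.23 on WT replicates 1 and 2 and 10.13 on WT replicate 3, so its difference of 2.21 ± 1.08 rests on separate levels within WT. At 16-17 dpp, on other arrays, the differences were 2.70 ± 1.08 for Twistnb, -0.32 ± 0.27 for Cdca7l and 0.38 ± 0.30 for Rapgef5.

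Named genes of the whole genome, those of chromosomes 16 and 12 included, were ranked by size. The ranking took genes with an unadjusted p under 0.05, no overlap between the groups and detection on all arrays of the higher group. This left 21 genes higher and 60 lower in Ts1Cje, out of 5178 named genes. The 21 include the triplicated genes Dyrk1a, Eva1c, Tmem50b and Zbtb21. The 12 largest in each direction are plotted by array. None passed at an adjusted p under 0.05, and in 7 of these 24 genes the values of a group spread over more than 2 log2 units.

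Spata9, a gene expressed in testis, was among the genes most above WT, at 7.14, 7.59 and 8.13 in Ts1Cje against 6.40, 5.60 and 5.50 in WT. No WT array detected it, so it was at least 1.94-fold higher in Ts1Cje (unadjusted p = 0.0027, adjusted p = 1, limma). The RIKEN transcripts 2610316D01Rik and 1700030C10Rik differed by 2.20 ± 0.74 and 1.72 ± 0.54. Slc39a9, a zinc transporter, measured 9.14, 9.32 and 9.32 in Ts1Cje against 7.63, 8.70 and 8.94 in WT (0.83 ± 0.28). Nipal3, of a family of magnesium transporters, measured 7.89, 8.39 and 8.27 in Ts1Cje against 7.08, 7.69 and 7.55 in WT (0.74 ± 0.24). Both transporters had a narrower spread in Ts1Cje than their distance from WT. In WT the range of Slc39a9 was 1.31, wider than its difference, which fell as low as 0.44 with a replicate left out. The remaining higher genes were Cela2a, an elastase (0.69), Ppp6r2, a regulatory subunit of protein phosphatase 6 (0.68), Tmem260 (0.66), Fam76a (0.55), Mxd1, a MAX partner that opposes MYC (0.55), and Opa3, a mitochondrial membrane protein (0.54), together with Rapgef5. With a replicate left out, Cela2a fell as low as 0.29, Ppp6r2 0.31, Tmem260 0.34 and Mxd1 0.24. The lowest values were 0.45 for Fam76a, 0.44 for Opa3 and 0.57 for Rapgef5.

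Among the lower genes, Cmya5, a large protein of striated muscle, measured 9.83, 5.65 and 5.64 in Ts1Cje against 10.25, 10.95 and 10.73 in WT (-3.60 ± 1.02, unadjusted p = 0.0030, adjusted p = 1, limma). Replicate 1 stood near WT and the other 2 Ts1Cje arrays near background. With array weights this probe passed, at -4.94 (adjusted p = 0.025, limma). Trim11, a ubiquitin ligase, was split in another way, at 7.52, 12.42 and 7.51 in Ts1Cje against 12.73, 12.61 and 12.52 in WT (-3.47 ± 1.43). Pop4, a subunit of ribonucleases P and MRP, measured 11.91, 6.73 and 12.54 in Ts1Cje against 13.25, 13.92 and 12.70 in WT (-2.90 ± 1.06). For these 3 genes the difference comes from 1 or 2 Ts1Cje arrays at a much lower level.

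Lower genes with less spread included Speer9-ps1, a pseudogene of the germ cell Speer family, at 6.22, 7.33 and 7.65 in Ts1Cje against 9.56, 8.50 and 8.43 in WT (-1.76 ± 0.46, unadjusted p = 0.0016, adjusted p = 0.91, limma). Its probe may also bind transcripts of near-identical Speer copies. Glod4, a glyoxalase-domain protein, measured 6.05, 7.12 and 6.15 in Ts1Cje against 8.07, 7.49 and 7.94 in WT (-1.39 ± 0.36, unadjusted p = 0.0014, adjusted p = 0.91, limma). Acot11, an acyl-CoA thioesterase, measured 5.80, 6.56 and 6.54 in Ts1Cje against 7.66, 8.06 and 7.37 in WT (-1.39 ± 0.39). In these 3 genes every Ts1Cje array was below every WT array. Wider spread was seen for Zfp93, a zinc finger protein (-1.88), Eya3, a phosphatase and transcriptional coactivator (-1.79), and Ltbp2, a matrix protein that binds fibrillin (-1.69). Ranges were 2.58 for Zfp93 and 2.4 for Eya3 in Ts1Cje, and 2.14 for Ltbp2 in WT. On replicate 3 Ltbp2 measured 9.20 in Ts1Cje and 9.22 in WT. Gnb4, a G protein beta subunit, was at -1.20. The RIKEN transcripts 6430590A07Rik and 9130230L23Rik were not detected on any Ts1Cje array, and were at least 1.26-fold and 1.48-fold lower in Ts1Cje than in WT.

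**Figure D3:**
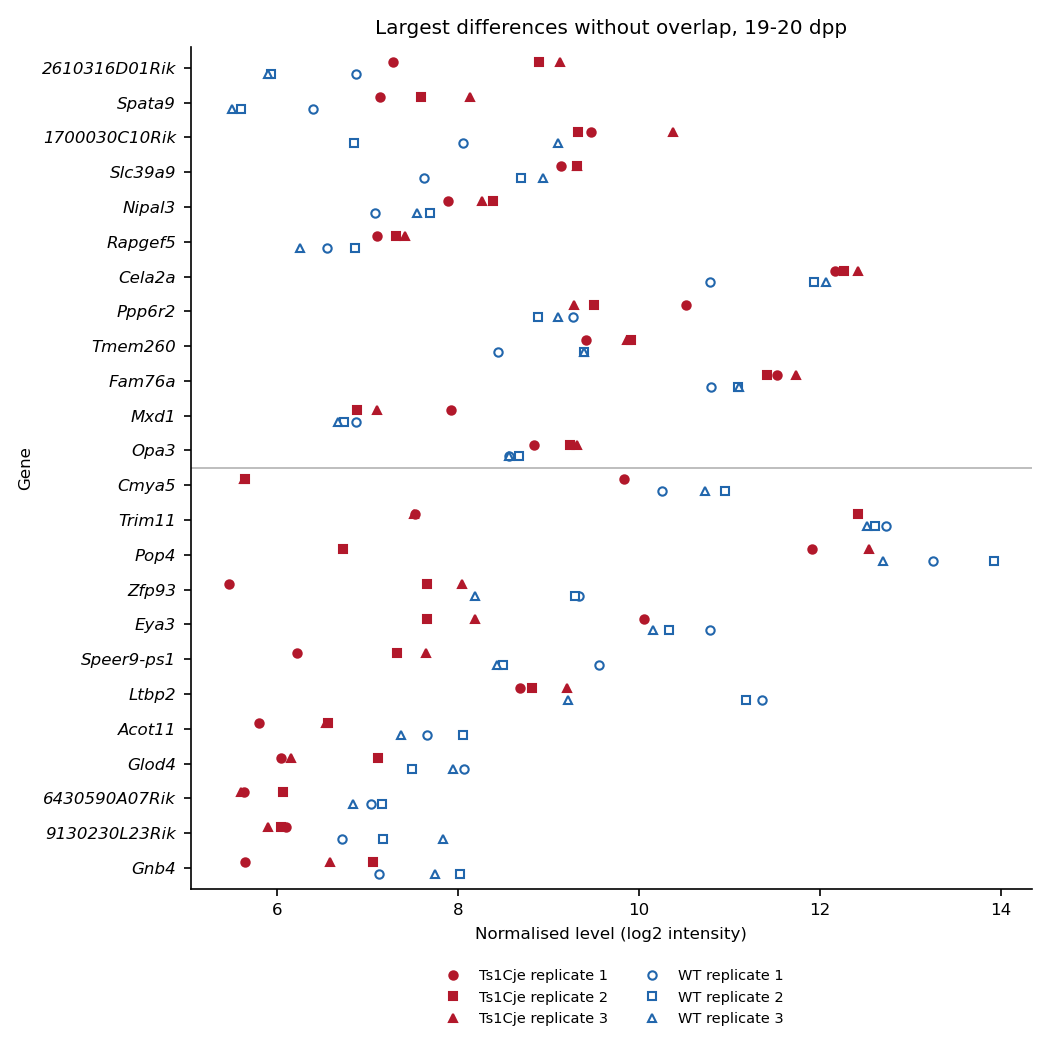
Normalised level (log2 intensity) of the 12 genes furthest above WT (above the grey line) and the 12 furthest below WT (below it) among genes whose Ts1Cje and WT arrays do not overlap, with Ts1Cje as filled red symbols above and WT as open blue symbols below in each row. In 7 of the 24 genes the arrays of a group lie more than 2 log2 units apart, as for Cmya5, Trim11 and Pop4.

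No germ cell stage marker passed at an adjusted p under 0.05. The 9 tested genes of pachytene to diplotene spermatocytes were detected on all 6 arrays and averaged 12.98, 12.40 and 12.44 on the Ts1Cje arrays against 12.75, 12.73 and 12.65 on the WT arrays. Their median difference was -0.14, with 2 of 9 above 0, where 46.3% of all tested probes were above 0. The median was -0.33 without Ts1Cje replicate 1, with 1 of 9 above 0, and without Ts1Cje replicate 2 it was 0.01. The extremes were Ccnb1, the M-phase cyclin B1 (-0.35), Mov10l1, a piRNA helicase (-0.29), Plk1, a mitotic and meiotic kinase (0.17), and Calr3, a spermatid chaperone (0.21). Meiotic prophase genes had a median of -0.06, with 1 of 6 above 0, and without Ts1Cje replicate 1 of 0.00, with 3 of 6 above 0. The cohesin subunit Smc3 (-0.02) and the synaptonemal complex gene Syce2 (0.01, not detected on any of the 6 arrays) were close to 0, and Mei1, needed for meiotic breaks in the mouse, was at -0.32.

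All 6 tested spermatogonial genes had a difference below 0, with a median of -0.24. Gfra1, the GDNF co-receptor of undifferentiated spermatogonia, measured 8.35, 7.82 and 8.52 in Ts1Cje against 9.39, 9.07 and 8.70 in WT. Its groups did not overlap, and the difference was -0.83 ± 0.36 (unadjusted p = 0.037, adjusted p = 1, limma). Nanos3, an RNA-binding protein of early germ cells, was at -0.66 ± 0.42, or -0.17 without Ts1Cje replicate 1, and Nanos2, Ccnd1, Foxo1 and Zbtb16 lay between -0.26 and -0.09. Without Ts1Cje replicate 1, which had the lowest mean of the 6 genes (7.96, with 8.59 and 8.78 on Ts1Cje replicates 2 and 3, against 8.64, 9.04 and 8.75 in WT), 3 of 6 were above 0 and the median was -0.03.

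The 10 round spermatid genes had a median of 0.23, with 7 above 0, and their direction turned with replicate 1. Tssk2, a kinase of spermatids, measured 10.88, 6.98 and 6.71 in Ts1Cje against 9.01, 6.55 and 6.46 in WT, and Spata20 measured 11.54, 8.28 and 8.51 in Ts1Cje against 9.79, 8.34 and 8.22 in WT. Both genes were highest on replicate 1 in both genotypes. Without Ts1Cje replicate 1 alone, 0 of the 10 genes were above 0 and the median was -0.40, a setting that keeps the high WT replicate 1. Without replicate 1 of both genotypes 3 of 10 were above 0 and the median was -0.09. Acr, the acrosomal protease acrosin, was at -0.29 ± 0.83, and Tekt3, a tektin of the sperm tail, at -0.09 ± 0.82.

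Markers of other testis cell types were detected in the preparations, and Ts1Cje replicate 1 again stood apart in them. Leydig cell genes averaged 7.79, 9.15 and 9.33 on the Ts1Cje arrays against 8.39, 8.46 and 8.29 on the WT arrays, and 5, 9 and 10 of the 10 were detected in Ts1Cje against 8, 8 and 8 in WT. Their median difference was 0.38, with 9 of 10 above 0, and without Ts1Cje replicate 1 it was 0.82, with 10 of 10 above 0. Cyp11a1, which starts steroid synthesis from cholesterol, measured 5.97, 9.38 and 10.12 in Ts1Cje against 7.38, 7.47 and 7.58 in WT (1.02 ± 0.86), and its difference without Ts1Cje replicate 1 was 2.28. In bulk RNA of this kind fewer cells of a type and less RNA per cell cannot be told apart.

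Sertoli cell genes had a median of 0.26, with 5 of 7 above 0, of 0.70 without Ts1Cje replicate 1 and of -0.02 without Ts1Cje replicate 3. Macrophage genes averaged 7.72, 8.54 and 9.67 on the Ts1Cje arrays against 8.72, 8.36 and 7.74 on the WT arrays. Their median difference was 0.55, with 4 of 6 above 0 and C1qb (-0.05) and Apoe (-0.43) below. All 6 were above 0 without Ts1Cje replicate 1, and the median was -0.03 without Ts1Cje replicate 3. Fcgr3 (0.80) changed by 2.74 between the ages in WT, where the median change of the list was -0.44. Peritubular genes were below 0 in 8 of 8, with a median of -0.41, and averaged 8.35, 8.86 and 9.46 on the Ts1Cje arrays against 9.94, 9.85 and 8.46 on the WT arrays. Col1a2, a chain of type I collagen, was not detected on any Ts1Cje array and was at least 1.34-fold lower there than in WT (unadjusted p = 0.040, adjusted p = 1, limma), and its partner chain Col1a1 was at -1.01 ± 0.65. Here WT replicate 3 stood with the Ts1Cje arrays. The median of the peritubular genes was -1.02 without WT replicate 3, -0.88 without Ts1Cje replicate 3, -0.28 without WT replicate 2, -0.14 without WT replicate 1 and -0.11 without Ts1Cje replicate 1, and it was 0.06 without replicate 1 of both genotypes, so the single arrays decide it. Endothelial genes (median -0.09, 2 of 5 above 0) and globin genes (median -0.28, 1 of 3 above 0) varied within both groups, and without Ts1Cje replicate 1 their medians were 0.13 and -0.02. The part of these cells in the differences of other genes was not tested.

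**Figure D4:**
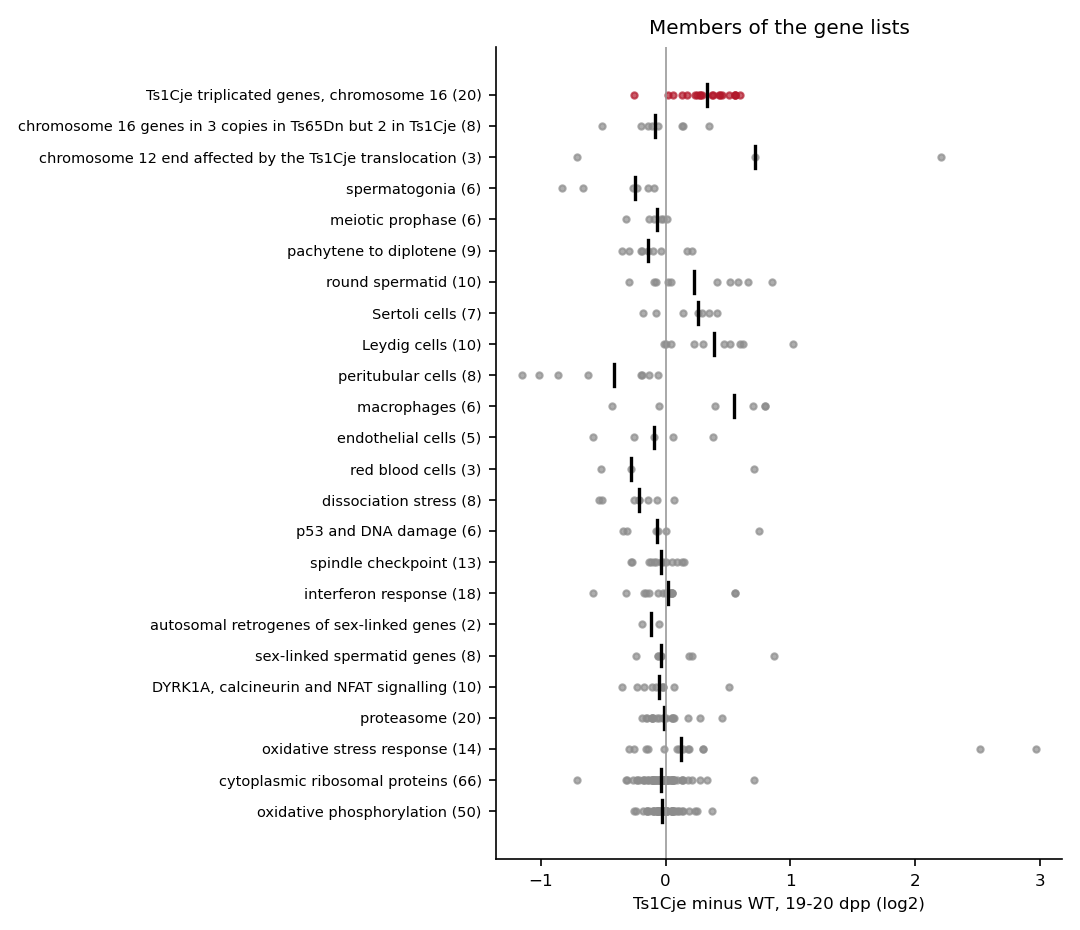
Each point is the Ts1Cje minus WT difference (log2) of a tested member of a gene list, and the black tick is the median of the list, with the number of tested genes in parentheses. The triplicated genes (red) have a median of 0.33, and the other plotted lists of 13 or more genes, such as the proteasome and the ribosomal proteins, have medians between -0.04 and 0.13. Shorter lists reach further, from -0.41 for 8 peritubular genes to 0.38 for 10 Leydig cell, 0.55 for 6 macrophage and 0.72 for 3 chromosome 12 genes.

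Genes that act with the triplicated products were mostly close to WT. In the list of DYRK1A, calcineurin and NFAT signalling 2 of 10 genes were above 0, with a median of -0.05, and apart from Dyrk1a itself the values ran from -0.35 for Nfatc2, an NFAT transcription factor, to 0.07 for the calmodulin gene Calm3. Proteasome genes had a median of -0.02, with 8 of 20 above 0. Psmb5, a catalytic subunit, measured 13.27, 13.07 and 13.56 in Ts1Cje against 12.51, 13.05 and 13.00 in WT (0.45 ± 0.21, unadjusted p = 0.046, adjusted p = 1, limma), and its groups just failed to overlap. Interferon response genes had a median of 0.02, with 10 of 18 above 0, and of 0.16 with 14 of 18 above 0 without Ts1Cje replicate 1, and the list includes the triplicated genes Ifngr2, Il10rb and Mx2. Irf1, a transcription factor of that response, was at -0.58 ± 0.30.

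Oxidative stress genes had a median of 0.13, with 9 of 14 above 0. Glrx, a glutaredoxin, measured 7.98, 10.53 and 10.39 in Ts1Cje against 8.43, 5.73 and 5.84 in WT (2.97 ± 1.17, unadjusted p = 0.022, adjusted p = 1, limma), and replicate 1 of both genotypes lay between the other arrays. Prdx2, a peroxiredoxin, was detected on 2 of the 3 Ts1Cje arrays and on no WT array, at 8.90, 5.81 and 10.32 in Ts1Cje against 5.73, 5.90 and 5.85 in WT (unadjusted p = 0.054). Among p53 and DNA damage genes (median -0.07, 2 of 6 above 0, or 0.16 and 4 of 6 without Ts1Cje replicate 1), Cdkn1a, the cell cycle inhibitor p21, measured 9.18, 9.66 and 10.56 in Ts1Cje against 8.71, 8.93 and 9.52 in WT. It was higher in Ts1Cje in each of the 3 pairs of the same replicate number, although the groups overlapped (0.75 ± 0.30, unadjusted p = 0.027, adjusted p = 1, limma).

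Spindle checkpoint genes had a median of -0.04 (5 of 13 above 0, from -0.28 for Cdca8 to 0.15 for Anapc5), and dissociation stress genes one of -0.21 (1 of 8 above 0). The list of sex-linked spermatid genes had a median of -0.04 with 3 of 8 above 0. Its median change between the ages in WT was -1.04, against 2.49 for the round spermatid list, so as a whole it did not follow spermatid genes. Its members Ssty1 and Slxl1 were at 0.87 and 0.21, and at -0.37 and -0.76 without Ts1Cje replicate 1. Without replicate 1 of both genotypes they were at 1.03 and -0.01. The 2 autosomal retrogenes of sex-linked genes, Taf9 and Zfa-ps, were at -0.19 and -0.05. The large housekeeping lists lay close to 0, with a median of -0.03 and 24 of 66 above 0 for cytoplasmic ribosomal proteins, and -0.03 and 21 of 50 above 0 for oxidative phosphorylation.

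An age score placed each array along the change with age. It was the mean of 1317 probes that rose between the ages in Ts65Dn minus the mean of 542 that fell. The probes were chosen at an adjusted p under 0.05 (limma). Only Ts65Dn arrays gave the size and direction of these changes. The Ts1Cje and WT arrays were in the same fit, so their spread entered the adjusted p and thus the choice of probes. The score was 3.74, 2.44 and 2.23 in Ts1Cje against 3.48, 2.87 and 2.87 in WT. Means were 2.80 ± 0.82 in Ts1Cje and 3.07 ± 0.35 in WT (SD, n = 3 each), a difference of -0.27 with an exact two-sided permutation p of 0.6, where 3 against 3 cannot go below 0.1. Ts1Cje replicates 2 and 3 were below every WT array and replicate 1 above every WT array. Without Ts1Cje replicate 1 the difference was -0.74 over the same probes, and -0.84 with the probes chosen again in the fit without it, each with an exact permutation p of 0.1, the smallest that 2 against 3 allows. Without replicate 1 of both genotypes, with the probes chosen again in that fit, the difference was -0.59. Between the ages in WT 46.7% of probes passed (limma, adjusted p under 0.05).

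**Figure D5:**
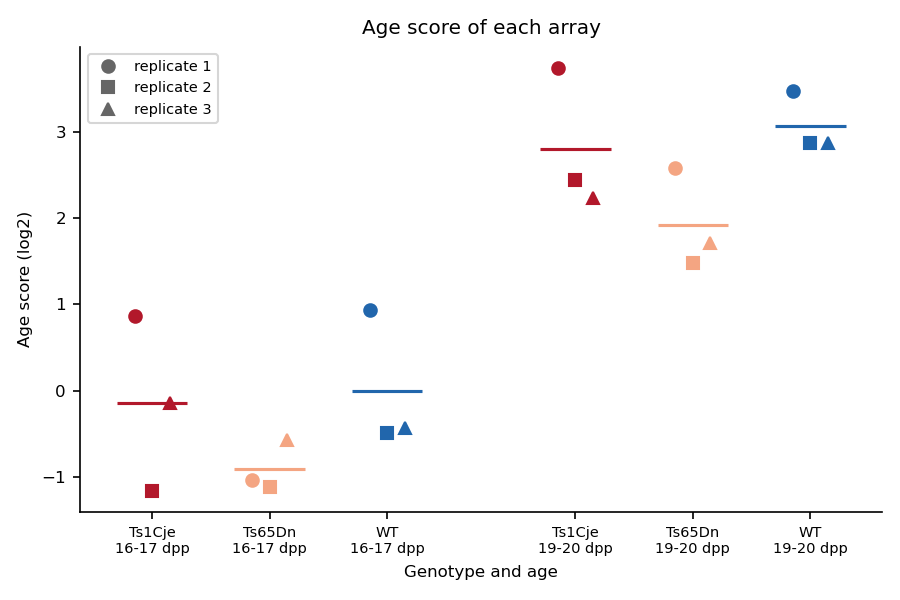
The vertical axis gives the age score (log2) of each array, with the genotypes side by side at each age and horizontal lines at group means. At 19-20 dpp the Ts1Cje arrays lie at 3.74, 2.44 and 2.23 and the WT arrays at 3.48, 2.87 and 2.87, and replicate 1 (circles) is the highest of its group in all 3 genotypes at that age.

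The Ts1Cje against WT difference at 16-17 dpp, measured on other mice and arrays, was set beside that at 19-20 dpp. Triplicated genes had medians of 0.33 at 19-20 dpp and 0.35 at 16-17 dpp, and 17 of 20 were above 0 at both ages (85%), where 20% of all named genes were. At 16-17 dpp 18 of the 20 were above 0, against 48.5% of all tested probes, and 6 had an unadjusted p under 0.05, against 2.00% of all tested probes. Dyrk1a was higher at both ages, by 0.51 ± 0.19 at 19-20 dpp and by 0.66 ± 0.19 at 16-17 dpp. Eva1c was higher at 19-20 dpp alone, by 0.45 ± 0.15 against -0.12 ± 0.15 at 16-17 dpp, and the difference between the ages was 0.57 ± 0.21 (unadjusted p = 0.018, adjusted p = 1, limma).

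Over all probes the difference between the ages passed for none of 21336 (0.00%, lowest adjusted p 0.56, limma), and 604 (2.83%) had an unadjusted p under 0.05. Several cell type lists stood on the other side of 0 at the earlier age. Spermatogonial genes were above 0 in 0 of 6 at 19-20 dpp and in 5 of 6 at 16-17 dpp, and Gfra1 gave a difference between the ages of -1.51 ± 0.51 (unadjusted p = 0.0095, adjusted p = 1, limma). Peritubular genes were above 0 in 0 of 8 at 19-20 dpp and in 8 of 8 at 16-17 dpp. Leydig genes were above 0 in 9 of 10 at 19-20 dpp and in 7 of 10 at 16-17 dpp. Of the 10 round spermatid genes 7 were above 0 at 19-20 dpp and 1 at 16-17 dpp, but at 19-20 dpp 0 of 10 were without Ts1Cje replicate 1 and 3 of 10 without replicate 1 of both genotypes. The peritubular count at 19-20 dpp was likewise 3 of 8 without Ts1Cje replicate 1 and the spermatogonial count 3 of 6.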

How the data were processed

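Enriched male germ cell RNA of 18 samples was read on Illumina BeadArrays. The deposited files give a raw intensity per probe and a detection p-value, per the file headers. The authors' deposited series table holds log2 values that equal the quantile-normalised intensity without background correction, and was used as an alternative. Intensities were background-corrected with limma 3.58.1 in R 4.3.3 (normexp from detection p, offset 16), put on the log2 scale and quantile-normalised. Control probes (274 of 46657) were left out. One limma model with 6 group means was fitted to all 18 arrays, with contrasts, empirical Bayes (15 degrees of freedom) and Benjamini-Hochberg adjustment over 21336 probes, and a call was an adjusted p under 0.05. The number of arrays limits the precision.

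Probe targets were named through gene numbers and clone names in RefSeq's gene table (GRCm38.p6), which matched 82.6% of 11857 zero-padded numbers. A gene was given by its brightest tested probe, and 737 genes had several. "At least" folds set the brighter group's mean over the lowest signal of detected probes. Genes were named in the text when they were triplicated, were among the 12 largest non-overlapping differences in each direction, or were the extremes of a list. The members and lists were chosen with earlier results of these data known. Replicates are biological per the labels. Arrays of the same replicate number deviated together in Ts1Cje and WT at 19-20 dpp (correlation 0.227 to 0.581 over 3 pairs). Over all groups such pairs ran from -0.302 to 0.635. At 19-20 dpp WT replicate 2 with Ts1Cje replicate 3 gave 0.429. Whether the numbers pair the samples is thus not settled, and the main fit used no pairing. Header numbers form 3 sets of 6 arrays, each with 1 array per group. Scripts were tested on simulated data. The alternatives tried were another background correction, scaling, filter, array weights, blocks, and leaving out each replicate.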

Additional observations from a re-analysis of the deposited data

How the results depend on the processing

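The triplicated genes kept a median between 0.22 and 0.41 when each replicate was left out, with 16 to 19 of 20 genes above 0 over the alternatives that tested all 20, and 14 of 15 with probes detected on all arrays. Of 508 recomputed values of the comparisons and lists, 18 moved beyond the replicate spread or turned direction. The count of probes called was 0, and became 1 with all probes kept, 32 with array weights and 1 when the fit held only the Ts1Cje and WT arrays of this age. It was 0 to 7 when a replicate was left out, with 7 without Ts1Cje replicate 1, 3 without Ts1Cje replicate 2 and 3 without WT replicate 3. With the replicate number as a block it was 0, with 1023 probes at an unadjusted p under 0.05 against 634 without the block. With the array set as a block, an alternative chosen after seeing the data, it was also 0. Without replicate 1 of both genotypes, also chosen after seeing the data, it was 5, and the count for the difference between the ages was 1. The count for the difference between the ages was 0, and became 1 with all probes kept, 72 with array weights, 1 with the replicate block and 0 to 1 with a replicate left out. The cause of these changes was not tested. The chromosome 12 list gave -0.71 with probes detected on all arrays, where fewer genes are tested. The Sertoli list ranged from -0.02 to 0.70 with a replicate left out, and dissociation stress gave -0.46 with array weights. With the probes of the score chosen again in each fit, the age score difference ranged from -0.84 to 0.05, and the value above 0 is that without Ts1Cje replicate 3. Of 44 genes followed, 5 turned direction. With array weights Dnajc28 gave -0.15 and Clic6 0.04, and without replicate 1 of both genotypes -0.12 and 0.09. With a replicate left out Dnajc28 ranged from -0.20 to 0.98, Clic6 from -0.56 to 0.11, Ets2 from -0.09 to 0.66, Sh3bgr from -0.29 to 0.32 and Mx2 from -0.22 to 0.28. Genes not detected on any array of a group have only a bound there.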

Other observations

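Among the smallest p-values of named genes in Ts1Cje against WT at 19-20 dpp were those of 4 genes outside the ranking by size, which were chosen after their values were seen. Homez, a homeobox and leucine zipper protein, measured 10.35, 10.74 and 10.66 in Ts1Cje against 11.48, 11.18 and 11.29 in WT (-0.73 ± 0.16, SE, adjusted p = 0.66, limma). Kcnk2, a background potassium channel, measured 8.19, 8.48 and 8.37 in Ts1Cje against 9.34, 8.99 and 9.43 in WT (-0.91 ± 0.21, adjusted p = 0.78, limma). Mef2b, a MADS-box transcription factor, measured 8.74, 8.87 and 8.69 in Ts1Cje against 9.37, 9.44 and 9.40 in WT (-0.64 ± 0.16). Myo5c, an unconventional myosin, measured 7.11, 7.16 and 6.92 in Ts1Cje against 7.66, 8.06 and 7.88 in WT (-0.81 ± 0.20). In all 4 the groups lay apart with little spread within each.

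Some probes had 2 separated levels over the 18 arrays, with a gap of more than 2 log2 units that took over 0.5 of the range. There were 29 such probes among 21336, and 25 of them split within the Ts1Cje or the WT group at 19-20 dpp. Mrpl35, a mitochondrial ribosomal protein, measured 5.55, 8.40 and 5.44 in Ts1Cje against 8.76, 9.49 and 5.50 in WT. Polr1a, the largest subunit of RNA polymerase I, was high on the same 3 of the 6 arrays, with 9.28 on Ts1Cje replicate 2 and 10.49 on WT replicate 2, and both genes lie on chromosome 6.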
